A study of Oryza sativa with 4 samples.

Results

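The PR10 gene cluster on rice chromosome 12 was examined in plants of Oryza sativa cv. Nakdong that overexpress the CCCH-type zinc finger gene OsC3H10, called OsTZF8 in the sample labels. The cluster was taken as every gene with an identifier from Os12g0555000 to Os12g0555500 in the deposited table, which gave 6 genes with 6 transcripts of 31414 genes with 37972 transcripts. Os12g0555000 (OsPR10A), Os12g0555100, Os12g0555200 (OsPR10B) and Os12g0555500 (PBZ1) were named when the cluster was chosen, and Os12g0555300 and Os12g0555400 lie between them. The cluster was selected on the OsC3H10OX and NT levels of OsPR10A and OsPR10B, which were known beforehand, so all levels of its genes, and the calls that the fit over all transcripts gave them, are a description and no independent test of them. OsC3H10OX was line 20 of the T4 generation, a single transgenic line carrying PGD1::OsTZF8, in which the PGD1 promoter drives expression in the whole body. NT was the non-transgenic cultivar. Both groups were whole plants 3 weeks old, grown in soil without a stress treatment, and each had 2 libraries that the study describes as biological replicates. The transgene's own transcript was not analysed here, so the overexpression itself was not checked.

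PR10 proteins are small, mostly cytosolic proteins with the Bet v I fold, a curved sheet and a long helix that enclose a cavity able to bind hydrophobic ligands. Some of them have ribonuclease activity in vitro. Their genes are switched on by pathogens, salicylic acid and jasmonate in many plants, and PBZ1 of rice took its name from probenazole, a compound that primes plants for resistance to blast disease. Copies of PR10 genes often stand in tandem, as here.

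In the deposited coordinates (IRGSP-1.0, RAP-DB annotation) the 6 transcripts spanned 20304 bases of chromosome 12, with 1021 to 5117 bases between neighbours. OsPR10A (Os12t0555000-01) occupied 22580879 to 22581936, Os12t0555100-01 occupied 22585180 to 22586562, and OsPR10B (Os12t0555200-01) occupied 22591680 to 22593505. These 3 are annotated as similar to PBZ1. Os12t0555300-00 at 22595530 to 22596804 is annotated as similar to a PR-10a protein, and PBZ1 (Os12t0555500-01) at 22600048 to 22601182 closes the cluster. Os12t0555400-01 at 22597826 to 22598994 is annotated as similar to raffinose synthase, an enzyme of sugar metabolism, and is no PR10 gene. The transcripts were 408 to 1015 nt long, and each gene had 1 transcript in the table.

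Levels were FPKM, the number of fragments scaled to transcript length and library size. The low FPKM values lay on even steps, from which the fragments behind 1 FPKM were inferred. They numbered 40.9 and 37.8 per kilobase of corrected length in OsC3H10OX replicates 1 and 2, against 37.1 and 56.8 in NT replicates 1 and 2. Corrected length was transcript length less 175 nt in each OsC3H10OX library, and less 185 and 180 nt in NT replicates 1 and 2. Counting error, from exact Poisson intervals at 95%, was therefore small for the abundant members and large for Os12g0555300. Between 29644 and 29992 transcripts reached 1 FPKM in each library. The NT samples are described with the cultivar and a number that looks like a year, which the OsC3H10OX samples lack, and shared growth or sequencing of the groups is not stated, so a batch cannot be told apart from the genotype. PR10 copies resemble each other, and how fragments that map to several copies were assigned is not given in the sources used here, so the division of reads among the PR10 members is uncertain.

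OsPR10A and OsPR10B were the members that stood higher in OsC3H10OX by the widest margin, and PBZ1, at the other end of the cluster, stood only slightly higher. The remaining PR10 members were scarce in both groups. OsPR10A had 137.9 and 140.4 FPKM in OsC3H10OX, against 38.9 and 43.5 FPKM in NT. Both OsC3H10OX libraries lay far above both NT libraries, and the OsC3H10OX libraries lay closer together than the NT libraries. Its mean was 139 ± 1.71 FPKM in OsC3H10OX and 41.2 ± 3.27 FPKM in NT (SD, n = 2 each), a ratio of 3.38. On the deposited log2 scale, log2(FPKM + 1) normalized between libraries and used for every log2 difference here, the difference was 1.79 ± 0.10 (SE), and without the normalization it was 1.73.

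OsPR10B had 61.0 and 59.6 FPKM in OsC3H10OX, against 20.0 and 24.0 FPKM in NT. The groups again did not overlap. It averaged 60.3 ± 1.02 FPKM in OsC3H10OX and 22.0 ± 2.81 FPKM in NT (SD, n = 2 each), a ratio of 2.74 and a log2 difference of 1.46 ± 0.12 (SE). For this pair of genes the OsC3H10OX libraries differed from each other by -0.01 (OsPR10A) and 0.06 (OsPR10B) on the log2 scale, and the NT libraries by -0.15 (OsPR10A) and -0.24 (OsPR10B). The median size of that difference over all tested transcripts was 0.17 for the OsC3H10OX pair of libraries and 0.12 for the NT pair, so both genes varied less than the median in OsC3H10OX and more than it in NT.

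PBZ1, the gene after which OsPR10A, Os12g0555100 and OsPR10B are annotated, had 48.3 and 50.5 FPKM in OsC3H10OX, against 38.2 and 39.8 FPKM in NT. It too lay above NT without overlap, but by little. The means were 49.4 ± 1.52 and 39.0 ± 1.10 FPKM in OsC3H10OX and NT (SD, n = 2 each), a ratio of 1.27, and the log2 difference was 0.37 ± 0.09 (SE).

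Os12g0555100 was the member whose OsC3H10OX libraries lay below NT. It had 2.01 and 4.07 FPKM in OsC3H10OX, against 4.32 and 4.68 FPKM in NT. OsC3H10OX replicate 1 stood apart, since replicate 2 was near the NT libraries, and the OsC3H10OX libraries differed by -0.82 on the log2 scale. About 55 and 104 fragments were inferred for it in OsC3H10OX and 106 and 177 in NT. The counting interval of the FPKM was 1.51 to 2.60 in OsC3H10OX replicate 1 and 3.34 to 4.95 in OsC3H10OX replicate 2, so the libraries of this group differed by more than counting error. Its log2 difference was -0.50 ± 0.30 (SE), which became -0.09 without OsC3H10OX replicate 1 and -0.91 without OsC3H10OX replicate 2.

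Os12g0555300, the PR-10a-like gene, was barely detected, with 1.48 and 0.345 FPKM in OsC3H10OX and 0.704 and 1.13 FPKM in NT. The groups overlapped. Some 14 and 3 fragments were inferred in OsC3H10OX and 6 and 15 in NT, with counting intervals of the FPKM of 0.803 to 2.46 and 0.0702 to 0.995 in OsC3H10OX, against 0.266 to 1.58 and 0.648 to 1.91 in NT. The steps behind these numbers were read from transcripts longer than the 408 nt of Os12g0555300. Its inferred numbers lay 0.035 to 0.337 from a whole number, so they and the intervals are approximate. Its log2 difference of -0.07 ± 0.32 (SE) changed sign without OsC3H10OX replicate 2 (0.35) and without NT replicate 2 (0.07). Os12g0555400, the raffinose synthase-like gene, had 4.09 and 4.81 FPKM in OsC3H10OX, against 4.08 and 4.06 FPKM in NT, which also overlapped, and its log2 difference was 0.10 ± 0.14 (SE), or -0.03 without OsC3H10OX replicate 2.

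**Figure D1:**
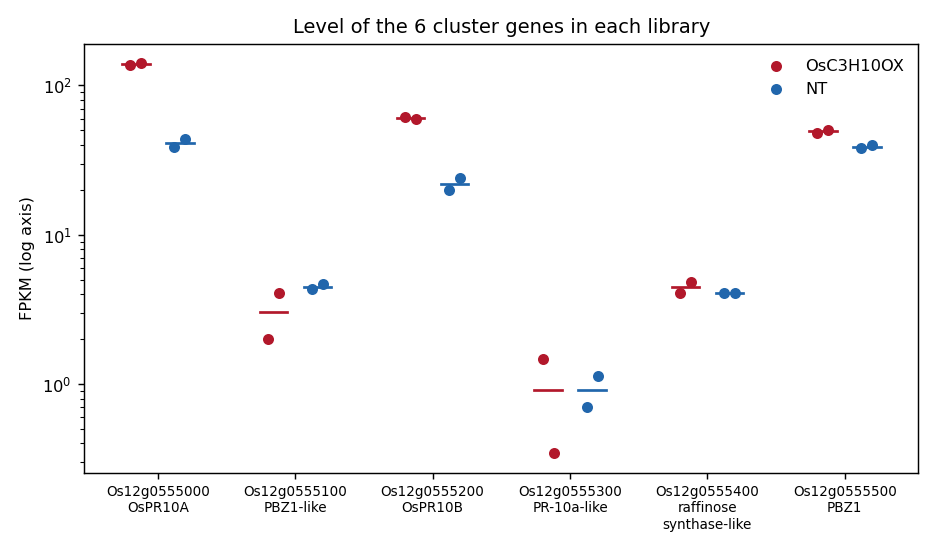
FPKM (log axis) of the 6 cluster genes in their order on the chromosome, with a point for each library and a bar at the mean of each group, OsC3H10OX in red and NT in blue. OsPR10A and OsPR10B lie well above NT in both OsC3H10OX libraries, PBZ1 slightly above, and Os12g0555300 has overlapping groups.

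All 6 members passed the filter, which asked for 1 FPKM or more in 2 or more libraries, and 2 of 6, OsPR10A and OsPR10B, were called higher in OsC3H10OX by limma at a Benjamini-Hochberg adjusted p under 0.05, with 0 called lower. Over all 30449 tested transcripts 0.647% were called higher and 0.841% lower, and 17.7% had an unadjusted p under 0.05. Since these levels led to the choice of the cluster, nothing is read from that contrast. Both OsC3H10OX libraries lay above both NT libraries in 3 of 6 members and below them in 1 of 6, whereas 26.8% of all tested transcripts lay above and 26.1% below. Both calls were lost when either NT library was left out or each transcript's own spread was used, and that of OsPR10B also without OsC3H10OX replicate 1 or with no filter, although with a library left out the log2 differences stayed between 1.72 and 1.87 for OsPR10A and between 1.34 and 1.58 for OsPR10B.

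By level, OsPR10A ranked 733 of 30449 tested transcripts in OsC3H10OX and 3505 in NT. OsPR10B ranked 2112 in OsC3H10OX and 7114 in NT, and PBZ1 ranked 2697 in OsC3H10OX and 3739 in NT. In OsC3H10OX the order of the abundant members was OsPR10A, OsPR10B, PBZ1, each apart from the next beyond the spread of its libraries. In NT OsPR10A and PBZ1 were at nearly the same level, with OsPR10A at 38.9 and 43.5 FPKM and PBZ1 at 38.2 and 39.8 FPKM, ranges that overlap, and OsPR10B lay below both. Among the 3505 transcripts at least as abundant as OsPR10A in NT, its log2 difference was at position 19 from the top. That of OsPR10B was at position 40 among the 7114 transcripts at least as abundant in NT. Since the cluster was chosen on these levels, the positions are a description only.

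The 5 PR10-annotated members summed to 250.7 and 254.8 FPKM in OsC3H10OX, against 102.1 and 113.0 FPKM in NT, which is 252.8 ± 2.88 and 107.6 ± 7.73 FPKM (SD, n = 2 each) and a ratio of 2.35. The sum was also made up differently. OsPR10A contributed 55.0% and 55.1% of it in OsC3H10OX, against 38.1% and 38.5% in NT. PBZ1 contributed 19.3% and 19.8% in OsC3H10OX, against 37.4% and 35.2% in NT. OsPR10B differed less in its part, 24.3% and 23.4% in OsC3H10OX and 19.6% and 21.2% in NT. Os12g0555100 made up 0.80% and 1.60% in OsC3H10OX and 4.23% and 4.14% in NT, and Os12g0555300 at most 1.0% in any library. OsPR10A was 2.86 and 2.78 times as abundant as PBZ1 in OsC3H10OX, against 1.02 and 1.09 times in NT. OsPR10B was 1.26 and 1.18 times as abundant as PBZ1 in OsC3H10OX and 0.524 and 0.603 times in NT, so the order of these genes differed between the groups in every library. These ratios are formed within a library and do not depend on its scaling. Shares and ratios restate the levels of OsPR10A and OsPR10B on which the cluster was chosen, so they are a description only. PBZ1 had a lower share in OsC3H10OX although its own FPKM was higher there. Both measures also depend on how fragments that map to several PR10 copies were assigned, which is not known.

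**Figure D2:**
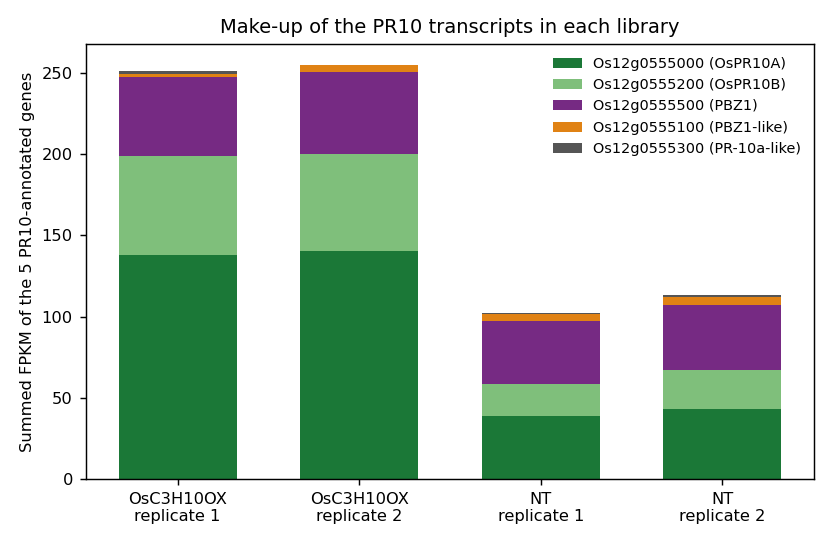
Summed FPKM of the 5 PR10-annotated members in each library, stacked by gene, with the OsC3H10OX libraries on the left and the NT libraries on the right. OsPR10A fills 55.0% and 55.1% of the OsC3H10OX bars and 38.1% and 38.5% of the NT bars, while the PBZ1 segment has 48.3 and 50.5 FPKM in OsC3H10OX and 38.2 and 39.8 FPKM in NT.

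Other genes of the PR10 and Bet v I family, and Os11g0568700, annotated only with a START-like domain, were found elsewhere in the genome by words of their annotation. Those tested differed less between the groups than OsPR10A and OsPR10B. That contrast was set in advance, since this pair was chosen on its levels in these groups. Of the 6 genes found in this way 5 passed the filter. Limma called 0 of 5 higher and 0 lower, and 0 had an unadjusted p under 0.05. These counts are too small to be told from the shares over all tested transcripts. The median log2 difference of the 5 was 0.12, against 0.00 over all tested transcripts, with a range of -0.19 to 0.36. Cluster members other than OsPR10A and OsPR10B ranged from -0.50 (Os12g0555100) to 0.37 (PBZ1). JIOsPR10 (Os03g0300400), a PR10 gene named for its induction by jasmonate, had 205.4 and 289.6 FPKM in OsC3H10OX, against 240.3 and 243.7 FPKM in NT, with overlapping groups and a log2 difference of 0.12 ± 0.18 (SE, limma adjusted p = 0.756). Os04g0465600, annotated as a Bet v I family gene, had 252.1 and 212.1 FPKM in OsC3H10OX, against 260.8 and 319.3 FPKM in NT (log2 difference -0.19 ± 0.16, limma adjusted p = 0.592). Both were thus more abundant than OsPR10A in either group. Os08g0374000, of the same annotation, had 60.8 and 51.9 FPKM in OsC3H10OX and 53.8 and 57.3 FPKM in NT (limma adjusted p = 0.795). Os11g0568700, which encodes a protein with a START-like domain, had 27.0 and 29.3 FPKM in OsC3H10OX and 26.3 and 25.3 FPKM in NT (limma adjusted p = 0.497). Summed over the 6 genes the level was 548.5 and 584.8 FPKM in OsC3H10OX, against 582.4 and 647.4 FPKM in NT.

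The genes on either side of the cluster were then compared, 10 on each side. Of their 25 transcripts 20 passed the filter, limma called 0 higher and 0 lower, and 4 of 20 had an unadjusted p under 0.05, near the 17.7% of all tested transcripts. With 0.647% and 0.841% of all tested transcripts called, a count of 0 in a list of this size says nothing particular about it. None differed by 2-fold or more, the median log2 difference was -0.02 and the range -0.60 to 0.66. The nearest gene before the cluster, the polygalacturonase-like Os12g0554800, had 20.7 and 14.9 FPKM in OsC3H10OX, against 22.0 and 22.3 FPKM in NT (log2 difference -0.29 ± 0.17, limma adjusted p = 0.439). The nearest after it, the cellulose synthase-like Os12g0555600, had 5.26 and 4.71 FPKM in OsC3H10OX and 6.78 and 6.55 FPKM in NT (log2 difference -0.36 ± 0.11, limma adjusted p = 0.228). Both flanking genes thus lay slightly below NT without overlap, as did 26.1% of all tested transcripts. Of the 20 tested neighbour transcripts, 7 lay above NT without overlap and 4 below, against 26.8% and 26.1% of all. Of the more abundant neighbours, Os12g0554000, similar to an arginine/serine-rich splicing factor, had a log2 difference of 0.24 (limma adjusted p = 0.365). Transcript 01 of Os12g0554400, a tetratricopeptide-like gene, had 0.08 (limma adjusted p = 0.684), and the calmodulin-binding protein gene Os12g0556200 had -0.01 (limma adjusted p = 0.9753).

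**Figure D3:**
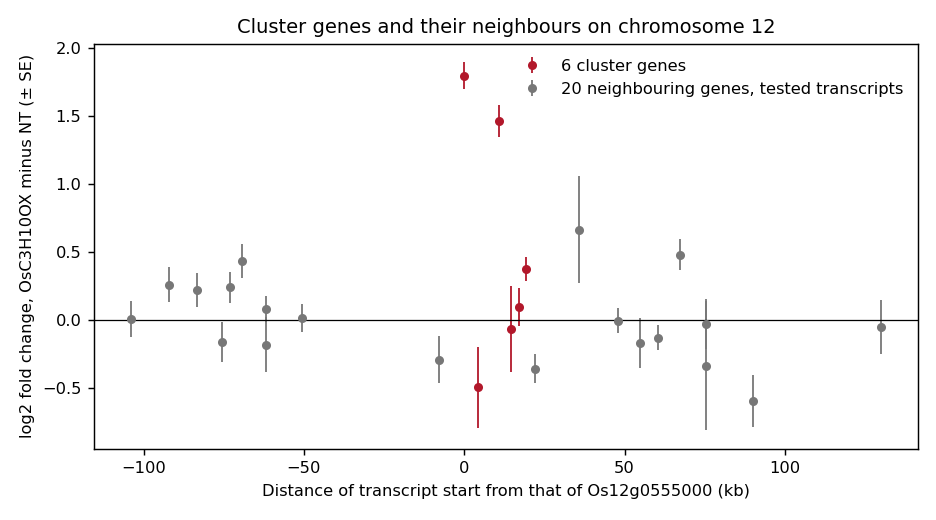
Log2 difference, OsC3H10OX minus NT, with its SE, against the distance in kb of each transcript start from that of OsPR10A, for the 6 cluster genes in red and the tested transcripts of the 20 neighbouring genes in grey. OsPR10A at 1.79 and OsPR10B at 1.46 stand above all neighbours, which lie between -0.60 and 0.66.

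Genes that act upstream of PR gene expression were compared in the same fit, from a list of 12 genes with 19 transcripts of which 18 were tested. It holds WRKY factors of rice immunity, the salicylic acid cofactor OsNPR1, the salicylic acid enzyme OsICS1, the jasmonate enzymes OsAOS2 and OsAOC, and the jasmonate-response factors OsJAmyb and OsMYC2. Limma called 0 of 18 higher and 0 lower, which is near the shares of 0.647% and 0.841% over all tested transcripts, 2 of 18 had an unadjusted p under 0.05, against 17.7% of all, and the log2 differences had a median of 0.03 and ranged from -0.55 to 0.52. OsWRKY45, needed in rice for resistance primed by probenazole-type compounds, had 88.5 and 92.4 FPKM for its main transcript in OsC3H10OX, against 76.5 and 89.1 FPKM in NT (log2 difference 0.19 ± 0.11, limma adjusted p = 0.426). OsWRKY53, an elicitor-induced factor, had 92.4 and 69.5 FPKM in OsC3H10OX and 89.5 and 101.1 FPKM in NT (limma adjusted p = 0.671). OsAOC, allene oxide cyclase of jasmonate synthesis, had 67.5 and 87.7 FPKM for its main transcript in OsC3H10OX and 87.2 and 94.5 FPKM in NT (limma adjusted p = 0.604). The 3 transcripts of OsWRKY13, another disease resistance factor, had log2 differences from -0.01 to 0.52, none of them called.

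OsPR10A and OsPR10B also belong to a list of 11 PR genes that the study picked from these same libraries for being higher in OsC3H10OX. The list is therefore not independent of the libraries. That its genes stand above NT was set in advance, so the counts below are a description only. All 11 lay above NT without overlap and limma called 3 of 11 higher, the cluster pair among them, where 26.8% of all tested transcripts lay above and 0.647% were called higher. The remaining call, named after its values were seen, was Os07g0127600, of the allergen V5/Tpx-1 related family, with 4.04 and 4.58 FPKM in OsC3H10OX, against 0.928 and 1.02 FPKM in NT. The cluster pair differed little between the OsC3H10OX libraries, as given above, while in the other 9 genes the difference of OsC3H10OX replicate 1 from replicate 2 ranged from -0.91 to 1.89 on the log2 scale.

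The transcripts whose 4 log2 values were most like those of OsPR10A, by the Euclidean distance of values centred on their mean over the 4 libraries, were picked for that likeness and are described without a test. The closest was Os09g0400100, similar to cinnamyl alcohol dehydrogenase, an enzyme of lignin precursor synthesis, at a distance of 0.0788, with 39.6 and 37.3 FPKM in OsC3H10OX and 10.1 and 11.6 FPKM in NT. Os05g0191500, similar to a stem 28 kDa glycoprotein, lay at 0.113, with 38.5 and 35.5 FPKM in OsC3H10OX and 10.02 and 10.97 FPKM in NT. In both, as in OsPR10A, NT replicate 2 lay somewhat above NT replicate 1. Os10g0359700 (a hypothetical gene, 0.112), Os05g0438201 (a conserved hypothetical gene, 0.116) and Os02g0789700 (a nucleotide-binding domain gene, 0.132) completed the 5 closest, at no more than 6.59 FPKM in any library. Os10g0359700 had 6.59 and 6.00 FPKM in OsC3H10OX, against 1.14 and 1.31 FPKM in NT. Os05g0438201 had 2.61 and 2.58 against 0.00792 and 0.00344 FPKM, and Os02g0789700 2.52 and 2.47 against 0.0545 and 0.0762 FPKM. The 1 added to FPKM before the log2 narrows differences at such low levels. These genes were thus like OsPR10A on that scale and not in their FPKM ratio. OsPR10B stood at position 36 in this order, at 0.343. Closest to OsPR10B were both transcripts of Os09g0332700, similar to an ABC transporter of the PDR type, at 0.112 and 0.144. Transcript 01 had 25.3 and 24.4 FPKM in OsC3H10OX, against 8.56 and 9.76 FPKM in NT. Os12g0434400, Os07g0221300 and Os01g0849050 followed at 0.159, 0.177 and 0.189, and OsPR10A stood at position 56. Os12g0434400 had 1.98 and 1.72 FPKM in OsC3H10OX, against 0.0748 and 0.134 FPKM in NT. Os07g0221300 had 2.52 and 2.35 FPKM in OsC3H10OX, against 0.286 and 0.333 FPKM in NT, so the same narrowing applies to both.

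Whole plants hold leaves and roots, and in such bulk samples fewer cells of a type and less RNA per cell cannot be told apart. The root markers, 9 genes of which 8 were tested, had 0 called by limma in either direction, 3 of 8 with an unadjusted p under 0.05, against 17.7% of all tested transcripts, and a median log2 difference of 0.03 over a range of -0.63 to 0.72. Their summed level was 652.6 and 644.7 FPKM in OsC3H10OX, against 752.2 and 754.0 FPKM in NT, and the root gene RCc3 alone had 265.1 and 271.9 FPKM in OsC3H10OX, against 391.6 and 389.7 FPKM in NT (log2 difference -0.44 ± 0.10, limma adjusted p = 0.155). The silicon transporter OsLsi1 had 192.8 and 167.7 FPKM in OsC3H10OX and 166.3 and 165.6 FPKM in NT (limma adjusted p = 0.425). OsAMT1;2 was near 0 in every library, from 0.0201 to 0.0556 FPKM. The leaf markers, 8 genes with 13 tested transcripts, leaned higher. They had a median log2 difference of 0.57 over a range of -0.18 to 2.23, with 9 of 13 above NT without overlap and 1 below, against 26.8% above and 26.1% below over all tested transcripts. Several of the 13 share a gene and are not separate markers. The highest value, 2.23 ± 1.05 (SE), was that of a 184 nt non-protein-coding transcript of the gene RCA. It had 6.58 and 18.9 FPKM in OsC3H10OX, against 5.63 and 9.99e-14 FPKM in NT. An unadjusted p under 0.05 was found for 6 of 13, against 17.7% of all, and 1 was called higher and 0 lower, against 0.647% and 0.841% of all. Their sum was 14747 and 17239 FPKM in OsC3H10OX, against 12001 and 11475 FPKM in NT. The called transcript was 01 of the Rubisco small subunit gene RBCS2, with 64.0 and 54.6 FPKM in OsC3H10OX and 23.9 and 25.7 FPKM in NT (log2 difference 1.27 ± 0.13, limma adjusted p = 0.0366), and without either NT library the leaf list had 0 called. The far more abundant transcript 02 of RBCS2 had 2816 and 2937 FPKM in OsC3H10OX and 1494 and 1486 FPKM in NT. It was not called (log2 difference 1.03 ± 0.15, limma adjusted p = 0.0779). RBCS3 had 4353 and 5225 FPKM for its main transcript in OsC3H10OX and 3807 and 3431 FPKM in NT (limma adjusted p = 0.244). The chlorophyll a/b-binding protein gene CAB1R had 2514 and 3581 FPKM in OsC3H10OX and 2571 and 2632 FPKM in NT (limma adjusted p = 0.548). Near-identical Rubisco copies can exchange reads. The part of these leaf and root levels in the PR10 values was not tested.

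**Figure D4:**
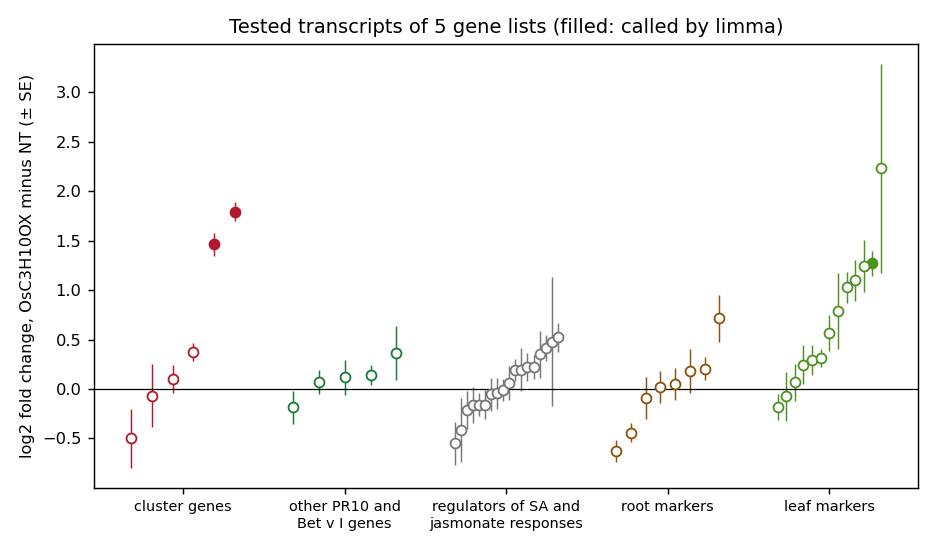
Log2 difference, OsC3H10OX minus NT, with its SE, of every tested transcript in 5 gene lists, ordered by value within each list and filled where limma called it. Filled points are OsPR10A and OsPR10B among the cluster genes and transcript 01 of RBCS2 among the leaf markers. The lists of other PR10 genes, regulators and root markers have none.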

How the data were processed

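Whole 3-week-old plants of OsC3H10OX line 20 and of NT were sequenced, with 2 libraries a group, and groups and replicate numbers were taken from the sample labels. The authors trimmed reads with Trimmomatic 0.32, mapped them with TopHat to IRGSP-1.0 and deposited FPKM per RAP-DB transcript. The tool that computed FPKM is not given in the sources used here. The authors also deposited normalized log2 values, which correlate at 0.999934 with log2(FPKM + 1) and have sorted values within 0.00178 of each other between libraries, as quantile normalization gives. Columns of the authors' own comparison (fold changes and p-values) were not used.

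The log2 values of 30449 transcripts that reached 1 FPKM in 2 or more libraries were fitted with limma 3.58.1 (R 4.3.3, eBayes with trend, prior df 2.37) as OsC3H10OX minus NT, with Benjamini-Hochberg adjustment over all of them and a call threshold of 0.05. An exact permutation test of 2 against 2 libraries cannot go below p = 0.333 and was not run. Fragment numbers were inferred from the steps of low FPKM values: 91.7% and 92.1% of 807 and 915 low values in OsC3H10OX, and 93.6% and 91.0% of 999 and 531 in NT, were whole within 0.05. Intervals cover counting error only. FPKM are not counts, so no count model was used. The other scales, filters, units, spreads, the block and each library left out were tried as alternatives.

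The members and lists were chosen with earlier results of these data known. Named were all members, called genes and the 4 (regulators, neighbours, other PR10 genes) or 2 (root and leaf markers) of highest mean FPKM in each of these lists, and the 5 transcripts most like OsPR10A and OsPR10B. The list of 11 PR genes was to be given by counts. The flanking gene Os12g0555600 was added for its position and Os07g0127600 after its values were seen.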

Additional observations from a re-analysis of the deposited data

How the results depend on the processing

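OsPR10A kept its log2 difference of 1.79 but not its call with each transcript's own spread and with the replicate block, and ranged from 1.72 to 1.87 with a library left out. OsPR10B kept 1.46 but not its call with no filter, own spread and the replicate block, and ranged from 1.34 to 1.58. With a library left out Os12g0555300 ranged from -0.49 to 0.35 and changed sign without OsC3H10OX replicate 2 (0.35) and without NT replicate 2 (0.07), and Os12g0555400 ranged from -0.03 to 0.23 and changed sign without OsC3H10OX replicate 2 (-0.033). All calls over the tested transcripts, 197 higher and 256 lower, became 58 and 68 with no filter, 124 and 163 with a filter of 5 FPKM, 1 and 2 with own spread, and 17 and 8 with the replicate block. With a library left out they ranged from 0 to 580 higher and from 0 to 449 lower. Without NT replicate 2 limma called 0 in either direction, with 2488 at an unadjusted p under 0.05. The leaf markers had 0 called higher with no filter, with FPKM summed per gene, with own spread and with the replicate block, 2 without the trend, and 0 to 2 with a library left out, and the root markers 0 to 1. The other PR10 genes, the neighbours and the regulators had 0 called under all 13 alternatives, which were log2(FPKM + 1) and log2(FPKM + 0.1) without normalization, the filters, units and spreads named, robust estimation, the block and each of 4 libraries left out. A lone library was taken to vary as much as the other group. Deviations of replicate 1 from the group means correlated at -0.0258 between groups. That value shows little shared deviation but cannot tell whether libraries with equal replicate numbers were handled together. Depth limits Os12g0555300 and, less, Os12g0555100.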
